A study of Mus musculus with 6 samples.

Results

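The clustered protocadherin genes encode cell-surface adhesion proteins and lie in 3 tandem arrays, alpha, beta and gamma, on mouse chromosome 18. The members were the protein-coding genes of mm10 on that chromosome whose symbols name an alpha, beta or gamma protocadherin. This gave 57 of 21887 protein-coding genes, with 14 in the alpha, 22 in the beta and 21 in the gamma cluster. The genes were chosen by symbol and chromosome alone, and the family itself was selected on the deposited peaks of these libraries, with earlier results known, among them peaks at Pcdhgc4 listed in 1 group only. The peaks over each cluster and 20 kb either side made up 18 of 79295 merged peak regions. Nearest to the 20 kb limit, the last region inside began 15540 bp past the gamma end and had a peak in 1 library, and the first outside began 35430 bp past it and had a peak in 3 siRNA-labelled libraries and 1 NC-labelled library.

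In neurons each cell expresses a small, largely random choice of these genes, and the proteins pair with identical copies on other cells, which lets a neuron tell its own processes from those of its neighbours. Each alpha and gamma gene has its own first exon with its own promoter, spliced to constant exons shared by the whole cluster, while the beta genes are single-exon genes. Promoter choice is known to involve the insulator protein CTCF, cohesin and DNA methylation, and the C-type genes at the right end of the alpha and gamma arrays are known to be expressed more uniformly than the others.

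CUT&Tag measured Arid3a, an AT-rich interaction domain transcription factor: an antibody on the bound protein recruits a transposase that cuts and tags the DNA nearby, and the tagged fragments are sequenced. Each assay used 10000 primary mouse cells of vascular smooth muscle, bought from a supplier, and the protocol gives a transfection of 24 h. Of the libraries, 3 are labelled si-Arid3a, each with another siRNA (siRNA-labelled libraries 1 to 3), and 3 are labelled negative control (NC-labelled libraries 1 to 3). The growth protocol mentions angiotensin II treatment as a model of aortic aneurysm without saying which libraries were exposed. The labels name no separate cultures, so a p-value covers the spread among 6 libraries, which may share a culture. By the labels the siRNA-labelled libraries differ in siRNA, so their spread includes differences between siRNAs. The NC-labelled libraries may be technical replicates.

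The names of the peaks go against the sample labels in all 6 lists: those in an siRNA-labelled list name an NC library, and those in an NC-labelled list an siRNA library. Directions are given by the sample labels and would turn round if the peak names were right. No library without the Arid3a antibody was used here. A peak gives the position of signal, not an amount of transcript or of Arid3a, so the knockdown is not checked by it, and fewer cells with the factor bound cannot be told apart from less binding per cell.

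The lists held 43834 to 51682 siRNA-labelled and 47789 to 50047 NC-labelled peaks. Fragments at a summit and the local background were solved from the deposited fold and p-value. The lowest background in common use within a list, which moves with depth and fragment length, was 0.475, 0.482 and 0.538 fragments per base in siRNA-labelled libraries 1 to 3 and 0.670, 0.673 and 0.621 in NC-labelled libraries 1 to 3, so this background and the label cannot be told apart. Of 8 smooth muscle marker genes, 4, 5 and 5 had a peak within 1 kb of a gene end in the siRNA-labelled libraries and 6, 6 and 6 in the NC-labelled libraries. Of all 21887 protein-coding genes it was 10594, 11012 and 11171 in siRNA-labelled libraries 1 to 3 and 11009, 11186 and 11101 in NC-labelled libraries 1 to 3, with 44.0% in all 6 and 57.2% in at least 1. Acta2, Tagln, Lmod1 and Smtn had one in all 6, Cnn1 and Myocd in 1 siRNA-labelled and 3 NC-labelled libraries, and Myh11 and Des in none. Of 6 neuronal markers, 2 (Syn1 and Tubb3) had a peak in every library. Of 5 endothelial markers 0 to 2 had one per library. Tek had one in 2 siRNA-labelled and 2 NC-labelled libraries, and Kdr in 0 siRNA-labelled libraries and 1 NC-labelled library. Of 4 glial markers Sox10 alone had one, in 1 NC-labelled library. Of 3 blood markers 1 or 2 had one, with Cd68 in all 6 libraries and Cd3d in 2 siRNA-labelled and 0 NC-labelled libraries.

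The alpha and beta clusters carried no Arid3a peak in any of the 6 libraries. The alpha cluster spans chr18:36930285-37188897 and the beta cluster chr18:37264998-37521419 (mm10), and with 20 kb either side both windows held 0 peaks in all 3 siRNA-labelled and all 3 NC-labelled libraries. Over chromosome 18 as a whole there were 1.75 to 2.12 peaks per 100 kb in the siRNA-labelled and 1.88 to 1.99 in the NC-labelled libraries. The stretch without a peak reached well beyond the genes. It ran for 841.5 kb, from chr18:36802520 to chr18:37643992, and held all 36 alpha and beta genes and Slc25a2, a mitochondrial carrier gene. It included 127.8 kb to the left of Pcdha1, 76.1 kb between the last alpha end and Pcdhb1, and 122.6 kb to the right of Pcdhb22, which hold no protocadherin gene start. Regions with a peak in all 6 libraries closed it on both sides. The left one had 14, 24 and 30 summit fragments in siRNA-labelled libraries 1 to 3 and 21, 22 and 23 in NC-labelled libraries 1 to 3.

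Long stretches without peaks were common, but few held so many genes. Of 3388 stretches over 100 kb between neighbouring merged regions of the genome, 362 were longer than this one, 13 of them on chromosome 18. The longer ones held a median of 1 protein-coding gene, and 112 held none. With 37 genes the protocadherin stretch was equalled by 1 stretch and exceeded by 12. Among these 13, olfactory receptor (Olfr) or vomeronasal receptor (Vmn) genes were the most frequent kind in 10, alpha-defensin genes (Defa) in 1 and predicted genes in 2. A list holds only called peaks, so a count of 0 does not measure the fragments below the threshold. The members are also partial copies of one another, and how the authors treated reads with several matches is not given in the sources used here, so a missing peak over their coding exons is uncertain to that extent.

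**Figure D1:**
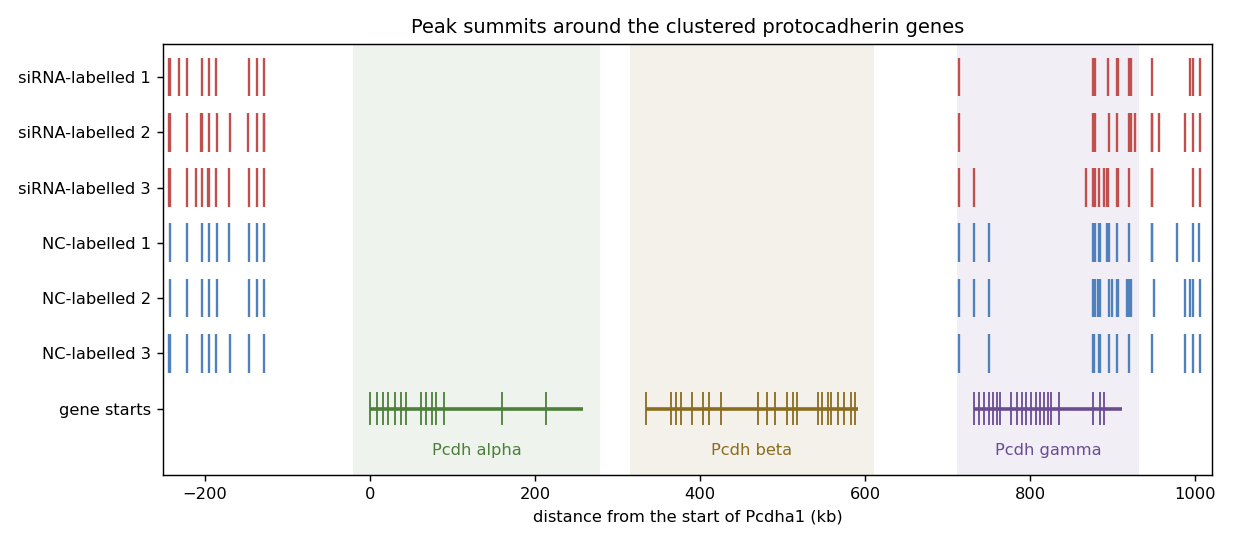
Summits of the deposited peaks in each library (rows, siRNA-labelled above NC-labelled) against distance from the start of Pcdha1 in kb, with member gene starts as ticks in the lowest row and the 3 windows shaded. The alpha and beta windows hold 0 peaks in all 6 libraries, and the peaks of the gamma window crowd towards its right end.

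By gene, 5 of the 57 members (8.77%) had a peak within 1 kb of the left end of the gene in at least 1 library, and 1 (1.75%) in all 6. The left end is the start of each gene's own first exon in the alpha and gamma arrays, where the right ends are nearly shared. No member had a peak at its right end. Over all 21887 protein-coding genes a peak at either end was found for 57.2% in at least 1 library and for 44.0% in all 6. All 5 were gamma genes (23.8% of 21). They were Pcdhga1 and Pcdhgb1 among the 18 A- and B-type genes and all 3 C-type genes, Pcdhgc3, Pcdhgc4 and Pcdhgc5. The 2 C-type alpha genes, Pcdhac1 and Pcdhac2, had none. The nearest merged region lay 127.8 to 341.2 kb from the start of an alpha gene (median 180.6 kb), 125.6 to 379.0 kb from a beta gene (median 215.5 kb) and 0 to 56.2 kb from a gamma gene (median 26.2 kb).

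Other tandem families, chosen after these values were seen and set beside the members as a description, covered a wide range. Of 39 Hox genes, which encode body-axis transcription factors, 46.2% had a peak at a gene end in 1 or more libraries and 30.8% in all 6. Of 1110 Olfr genes it was 1.62% and 0.180%, and of 353 Vmn genes 1.70% and 0.283%.

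**Figure D2:**
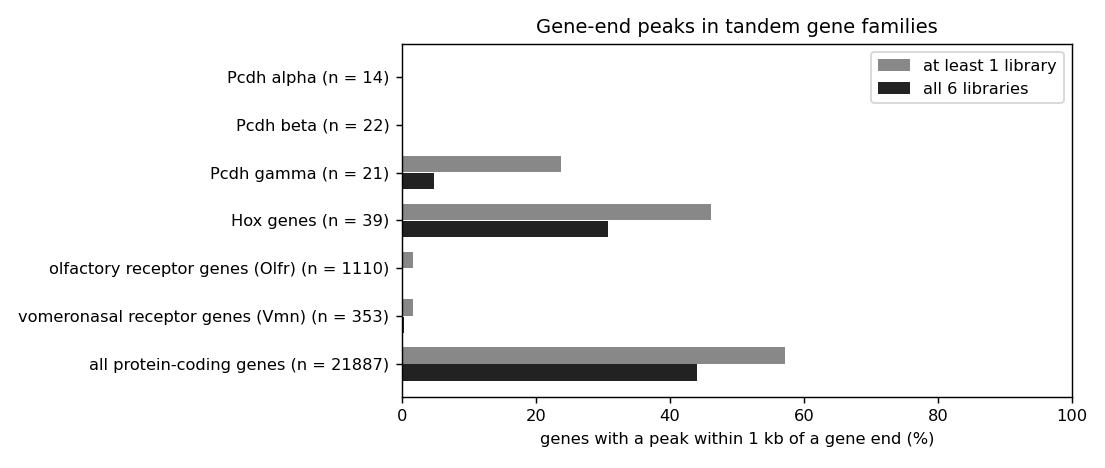
Share of genes in percent with a peak within 1 kb of a gene end in at least 1 library (grey) or in all 6 libraries (black), for the 3 protocadherin clusters, 3 other tandem families and all protein-coding genes. The alpha and beta bars are at 0, and the gamma cluster (23.8% in at least 1 library) lies below the Hox genes (46.2%) and above the Olfr genes (1.62%).

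The gamma cluster, chr18:37661775-37841873, was the exception, and its peaks were uneven along the array. With its flanks it held 8, 9 and 12 peaks in siRNA-labelled libraries 1 to 3 and 13, 14 and 9 in NC-labelled libraries 1 to 3, which is 3.63 to 5.45 peaks per 100 kb in the siRNA-labelled and 4.09 to 6.36 in the NC-labelled libraries. The 144.6 kb with the A- and B-type starts held 0, 0 and 2 summits in the siRNA-labelled and 2, 2 and 1 in the NC-labelled libraries. The 36.5 kb from 1 kb before Pcdhgc3 to the shared right end held 5, 5 and 8 summits in the siRNA-labelled and 9, 8 and 6 in the NC-labelled libraries. Of 18 merged regions in the window, 10 lay in that right part and 3 in the longer left part.

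The signal around the peaks also differed between the parts in the 4 libraries with peaks in both, siRNA-labelled library 3 and the NC-labelled libraries. At the peaks among the A- and B-type starts the local background was 1.0 to 1.1 times the lowest background of the list in siRNA-labelled library 3 and 1.0 to 1.2 times in the NC-labelled libraries. From Pcdhgc3 to the shared end it was 5.51 to 9.09 times in siRNA-labelled library 3 and 5.45 to 9.30 times in the NC-labelled libraries. At the right-flank region with a peak in all 6 libraries it was 7.3 to 8.1 times in the siRNA-labelled libraries. In the NC-labelled libraries it was 7.9 to 8.7 times there, so a raised background was also seen past the array. The median over all peaks of a list was 3.18 to 3.56 times in the siRNA-labelled and 3.21 to 3.38 times in the NC-labelled libraries. Peaks of the right part held 13 to 32 summit fragments in siRNA-labelled library 3 and 13 to 40 in the NC-labelled libraries. In siRNA-labelled libraries 1 and 2, with peaks in the right part alone, the background there was 5.83 to 9.28 and 7.45 to 8.82 times the lowest. Peaks of the left part held 5 and 7 in siRNA-labelled library 3 and 4 to 8 in the NC-labelled libraries. The lowest number of summit fragments in any peak of a whole list was 4 in each siRNA-labelled library and 4 or 5 in the NC-labelled libraries. Background and summit fragments were both read at called peaks alone. A summit of few fragments can be called only over a low background, so peak calling itself links these values.

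**Figure D3:**
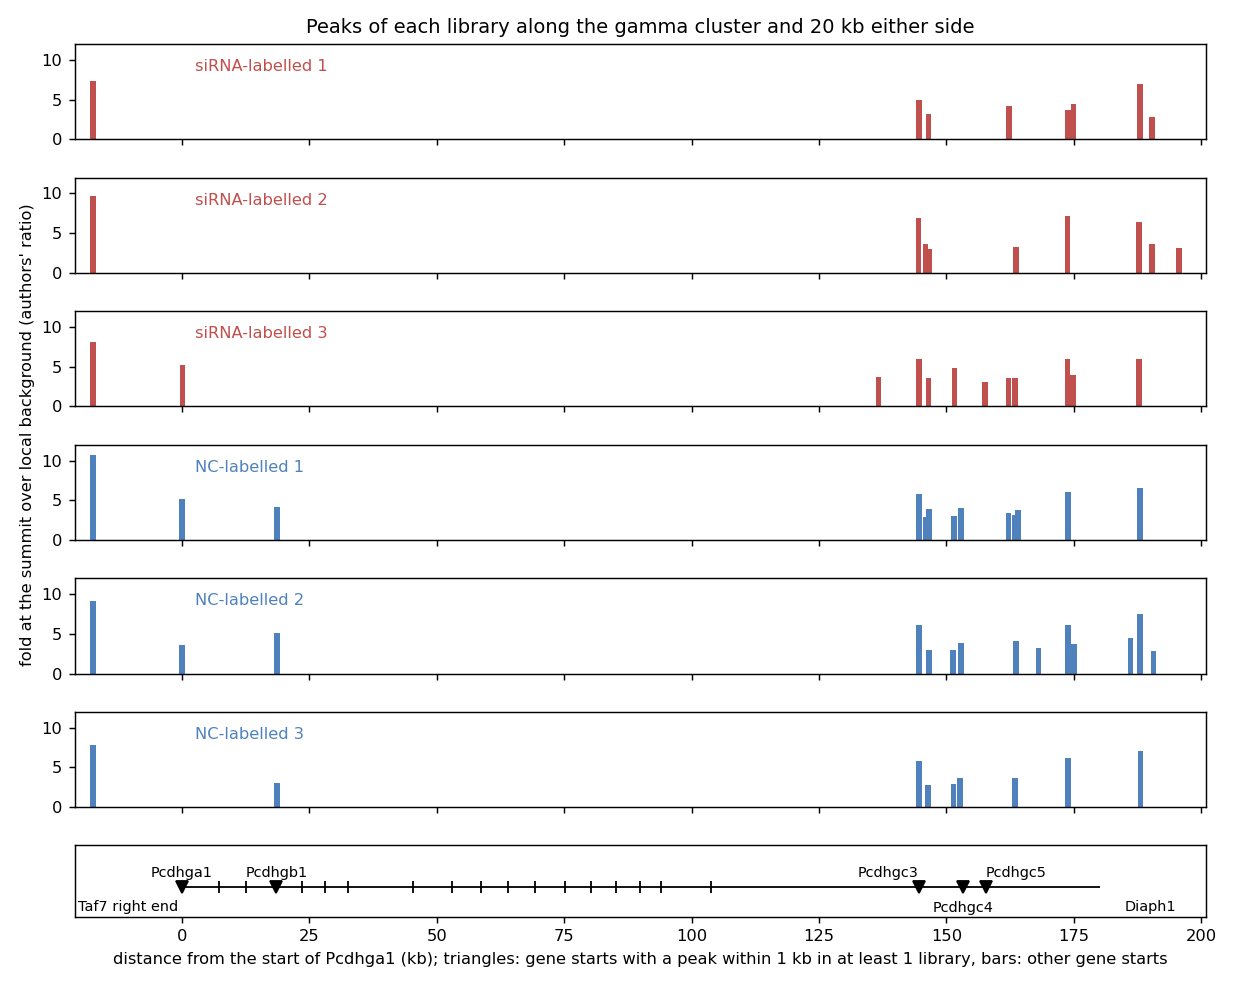
Fold at each peak summit over local background, as the authors deposited it, against distance from the start of Pcdhga1 in kb, with 1 panel per library (siRNA-labelled above NC-labelled) and gene starts in the lowest panel. Peaks recur in all 6 libraries at the Taf7 right end, at Pcdhgc3, near the shared gamma end and in Diaph1, and most A- and B-type starts (16 of 18) have none.

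Pcdhgc3, the first of the C-type gamma genes, was the only member whose start had a peak in all 6 libraries. The region over it was chr18:37806066-37807345. It held 24, 33 and 32 summit fragments in siRNA-labelled libraries 1 to 3 and 38, 40 and 34 in NC-labelled libraries 1 to 3. The NC-labelled libraries were all above the siRNA-labelled ones before scaling for depth. Unscaled values were lower in the siRNA-labelled libraries over the genome too, with a median log2 difference of -0.297 over 29602 shared regions. The deposited fold was 5.01, 6.85 and 5.95 in the siRNA-labelled and 5.85, 6.15 and 5.86 in the NC-labelled libraries, and these overlap. The deposited −log10 q was 9.07, 16.8 and 14.3 in the siRNA-labelled and 16.4, 18.1 and 14.9 in the NC-labelled libraries, which placed the peak at percentiles 55.8 to 74.9 of the siRNA-labelled and 69.3 to 71.5 of the NC-labelled lists. A second region with a peak in all 6 libraries, chr18:37807616-37808531, began 1206 bp to the right of the Pcdhgc3 start. It was weaker, with −log10 q of 3.08, 4.23 and 4.84 in the siRNA-labelled and 7.34, 3.44 and 2.66 in the NC-labelled libraries. In siRNA-labelled library 2 this value is of the left of 2 peaks in the region, and its right peak had 2.73. The other libraries had their highest summit at the right place.

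Another shared region, chr18:37835339-37837021, lay inside all 21 gamma genes and ended 4852 bp before their right end, the part of the array that holds the constant exons. It held 17, 32 and 27 summit fragments in the siRNA-labelled and 34, 32 and 30 in the NC-labelled libraries. These are the highest summits of each library, and the region merges peaks at 2 places. The siRNA-labelled library 1 had its highest summit at the right one, with a fold of 4.40 and −log10 q of 5.72. Its left peak held 13 fragments, with a fold of 3.71 and −log10 q of 3.51. The other 5 libraries had their highest summit at the left place. Folds there were 7.19 and 5.96 in siRNA-labelled libraries 2 and 3 and 6.07, 6.11 and 6.14 in the NC-labelled libraries. The −log10 q of the region in the other 5 libraries was 12.3 to 17.1.

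Outside the members, 2 shared regions flanked the array. The region chr18:37643993-37644585 covered the right end of Taf7, which encodes a subunit of the general transcription factor TFIID, with −log10 q of 9.76, 15.2 and 11.2 in the siRNA-labelled and 20.7, 14.5 and 11.0 in the NC-labelled libraries. The region chr18:37849321-37850189 lay 7448 bp past the gamma end inside Diaph1, which encodes an actin-nucleating formin. Its −log10 q was 16.6, 13.7 and 13.9 in the siRNA-labelled and 19.7, 26.4 and 21.1 in the NC-labelled libraries. It was the strongest peak of the window in siRNA-labelled library 1 and in NC-labelled libraries 2 and 3. The gamma right-end region was strongest in siRNA-labelled library 2, the Pcdhgc3 start in siRNA-labelled library 3 and the Taf7 right end in NC-labelled library 1. Enhancers of the clusters are known from brain to the right of the gamma array, and their coordinates were not used here. The annotated read-through genes Gm37013, Gm38666 and Gm38667, which run from the alpha to the gamma array, had no peak at either end in any library.

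**Figure D4:**
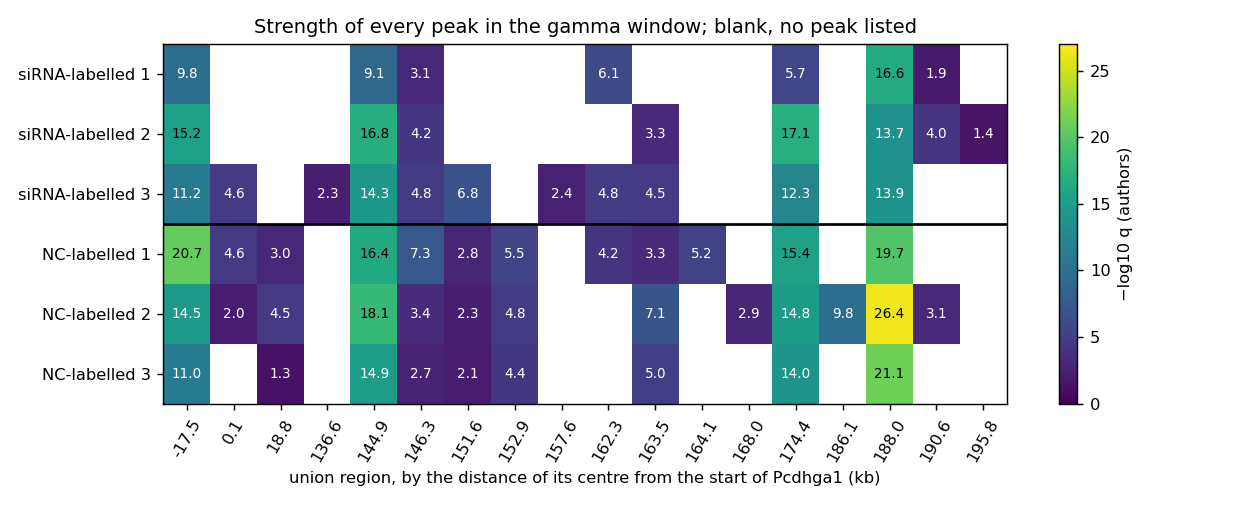
Deposited −log10 q of the strongest peak of each library (rows, siRNA-labelled above NC-labelled) in each of the 18 merged regions of the gamma window (columns, by distance of the region's centre from the start of Pcdhga1 in kb). Filled columns, with a peak in all 6 libraries, are 5, and blanks are regions where a list has no peak.

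The comparison of the groups asks whether signal at these genes was lower in the libraries labelled as Arid3a knockdown. The test answers this only in part. It took regions with a peak in all 6 libraries, so a region without a peak in the siRNA-labelled libraries could not enter it. Among the 5 regions tested, those at Taf7 and in Diaph1 lie outside the members. At the 5 shared regions, none of which is the Pcdhgc4 region known from earlier results, no difference passed the test. The fit ran over the whole genome, but the regions lie in a family selected on the same lists, so their values describe these libraries and are no independent evidence. Summit fragments, centred on the median over all 29602 regions with a peak in all 6 libraries, were fitted with limma over those regions, and 0.213% of them passed an adjusted p of 0.05 (0.0912% higher and 0.122% lower in the siRNA-labelled libraries). Leaving out 1 library moved these 63 calls to between 10 (without NC-labelled library 1) and 372 (without siRNA-labelled library 1). Of the 5 regions 0 passed, and 0 had an unadjusted limma p under 0.05, where 11.3% of all 29602 regions did. For 5 regions a count of 0 is near that share. At the Pcdhgc3 start the summit held 29.7 ± 4.93 fragments in the siRNA-labelled and 37.3 ± 3.06 in the NC-labelled libraries (SD, n = 3 each), and the centred log2 difference was -0.05 (95% interval -0.40 to 0.30, limma adjusted p = 0.956). Near the gamma right end the value of siRNA-labelled library 1 comes from another summit than the rest. The highest summit there held 25.3 ± 7.64 fragments in the siRNA-labelled and 32.0 ± 2.00 in the NC-labelled libraries (SD, n = 3 each). The log2 difference was -0.09 (-0.48 to 0.30, limma adjusted p = 0.916). For the second Pcdhgc3 region, where siRNA-labelled library 2 gives another summit than the rest, the log2 difference was 0.04 (-0.40 to 0.49, limma adjusted p = 0.969). For the Taf7 right end it was 0.00 (-0.46 to 0.46, limma adjusted p = 0.999), and for the Diaph1 region -0.24 (-0.58 to 0.10, limma adjusted p = 0.634). The Diaph1 summit held 30.3 ± 2.08 fragments in the siRNA-labelled and 44.0 ± 5.2 in the NC-labelled libraries before centring (SD, n = 3 each). Every interval spans 0, so neither a difference nor its absence was shown at these regions.

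**Figure D5:**
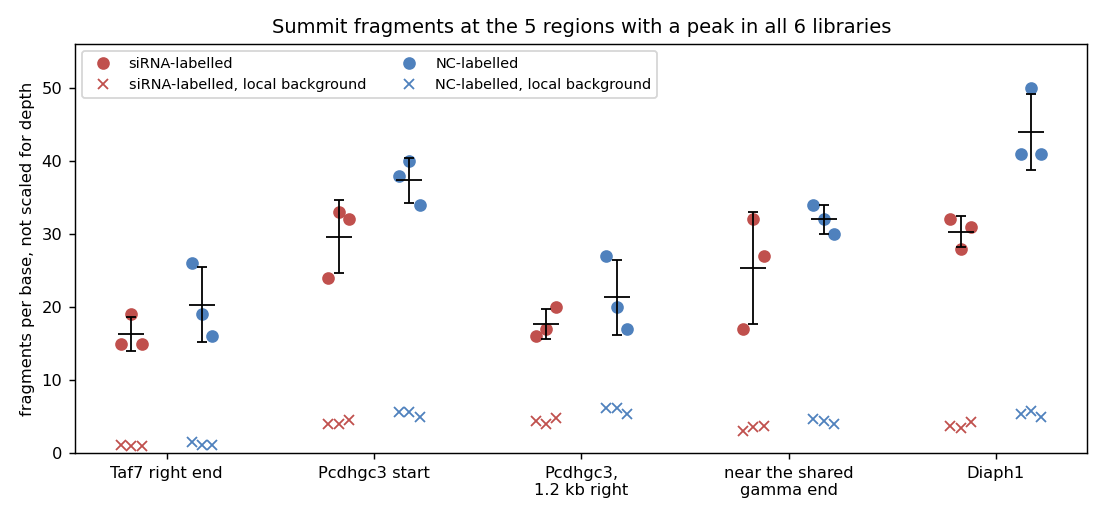
Summit fragments (circles) and local background (crosses), both in fragments per base and not scaled for depth, at the 5 regions with a peak in all 6 libraries, for siRNA-labelled (left of each pair) and NC-labelled libraries. Black dashes and bars are the mean and SD of 3 libraries. Summits stand above the local background at every region, as called peaks must. Before centring, all siRNA-labelled circles lie below the NC-labelled ones at the Pcdhgc3 start and in Diaph1, and at the other regions they overlap. Without scaling, the median log2 difference over all 29602 shared regions was -0.297. How many of those regions separate in this way was not counted, so the separation is not particular to these 2.

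Counts of peaks overlapped between the groups. The 3 windows together held 9.67 ± 2.08 peaks in the siRNA-labelled and 12 ± 2.65 in the NC-labelled libraries (SD, n = 3 each). Peaks covered 3962, 3819 and 6495 bp in siRNA-labelled libraries 1 to 3 and 5918, 5766 and 5690 bp in NC-labelled libraries 1 to 3. The siRNA-labelled library 3 had the most covered bases of all 6. Members with a peak at the start numbered 1, 1 and 3 in siRNA-labelled libraries 1 to 3 and 4, 4 and 3 in NC-labelled libraries 1 to 3. Over all 21887 protein-coding genes, those with a peak at an end numbered 10594, 11012 and 11171 in siRNA-labelled libraries 1 to 3 and 11009, 11186 and 11101 in NC-labelled libraries 1 to 3. No p is given for these sums, since they are scores over members selected on the same peaks and include the known peaks at Pcdhgc4.

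Of the 18 regions, 2 were NC-only, with a peak in each NC-labelled library and in no siRNA-labelled one, and 0 were siRNA-only. Over all merged regions 0.608% were NC-only and 0.342% siRNA-only. Both lay at gamma gene starts, so that Pcdhgb1 and Pcdhgc4 were NC-only by gene as well, against 0.169% NC-only and 0.0914% siRNA-only of all protein-coding genes. Both were weak where present. The Pcdhgb1 region, chr18:37680212-37680865, held 6, 8 and 4 summit fragments in NC-labelled libraries 1 to 3, with −log10 q of 2.98, 4.53 and 1.32. The value in NC-labelled library 3 stood at percentile 0.7 of that list. When every list was cut to the length of the shortest, only the Pcdhgc4 region was still NC-only (1 of 2). With −log10 q of at least 5, or with 50% of a merged region to be covered, 0 regions were NC-only, so neither gene held as NC-only under these settings.

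The Pcdhgc4 region, chr18:37814405-37814960, ended 119 bp before the annotated start. It held 19, 17 and 17 summit fragments in NC-labelled libraries 1 to 3, folds of 3.97, 3.86 and 3.64 and −log10 q of 5.54, 4.82 and 4.36, at percentiles 22.5 to 28.7 of those lists. Its local background, 3.67 to 4.04 fragments per base, was 5.5 to 6.4 times the lowest of each list. The next region to the left, chr18:37813041-37813666, had no peak in siRNA-labelled libraries 1 and 2. It had a peak with 18 summit fragments and −log10 q of 6.80 in siRNA-labelled library 3, against 15, 13 and 13 fragments and −log10 q of 2.83, 2.26 and 2.11 in NC-labelled libraries 1 to 3. So siRNA-labelled library 3 had a peak on either side of the Pcdhgc4 start, 1413 bp to its left and at Pcdhgc5, but not at it. The background per base of the siRNA-labelled lists was lower throughout, as given above, and its part in these absences was not tested.

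The remaining starts were occupied in fewer libraries. Pcdhga1, the first gamma gene, had 7 summit fragments in siRNA-labelled library 3 and 8 and 5 in NC-labelled libraries 1 and 2, with −log10 q of 4.58 against 4.63 and 2.05. Pcdhgc5, the last C-type gene, had a peak in siRNA-labelled library 3 only, with 13 fragments and −log10 q of 2.43. The other 16 A- and B-type gamma genes had none. Between the C-type starts and the shared end, 4 more regions had a peak in 1 to 5 libraries, with −log10 q of 2.94 to 7.06. In the flank inside Diaph1 there were 3 more regions in 1 to 3 libraries, the strongest of them with −log10 q of 9.78 in NC-labelled library 2 alone. The remaining region, 7877 bp to the left of Pcdhgc3, had a peak in siRNA-labelled library 3 alone.

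Genes around the protocadherin pathway, from lists made with earlier results known, were mostly occupied at a gene end in all libraries or in none. Beside them, 44.0% of all protein-coding genes had a gene-end peak in all 6 libraries and 57.2% in at least 1. Of the genes in the 6 lists that follow 0 were NC-only and 0 siRNA-only, where the shares over all genes were 0.169% and 0.0914%, so that lists of this size would hold few or none. Examples with the same count in both groups were picked after their values were seen. Of 12 genes for CTCF, cohesin and loop extrusion, 7, 8 and 9 carried such a peak in siRNA-labelled libraries 1 to 3 and 8, 9 and 9 in NC-labelled libraries 1 to 3. All 6 libraries had one for 7 of the 12 (58.3%, against 44.0% of all genes). Ctcf and the cohesin ring genes Smc1a and Smc3 had one in all 6 libraries, and Rad21, another ring gene, in none. Wapl, which releases cohesin from DNA, had one in 1 siRNA-labelled and 2 NC-labelled libraries, and Pds5b, a cohesin regulator, in 2 siRNA-labelled and 3 NC-labelled libraries.

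Of 12 genes linked to silencing of the clusters, 8, 9 and 10 had a gene-end peak in siRNA-labelled libraries 1 to 3 and 9, 9 and 9 in NC-labelled libraries 1 to 3. All 6 libraries had one for 8 of the 12 (66.7%, against 44.0% of all genes). Smchd1, a silencing factor of the inactive X chromosome and of these clusters, had one in all 6. The DNA methyltransferase gene Dnmt3b had one in 2 siRNA-labelled libraries and 1 NC-labelled library, and the histone methyltransferase gene Setdb1 in 1 siRNA-labelled and 2 NC-labelled libraries. Of 11 signalling partners, among them the WAVE complex genes Cyfip1 and Nckap1, 8 had one in every library (72.7%, against 44.0% of all genes). With 11 or 12 genes a list, these shares are descriptions.

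Some related adhesion genes outside the clusters had peaks, at shares below the 44.0% of all genes with one in all 6 libraries. These shares were 33.3% of the non-clustered protocadherins, 17.6% of the classical cadherins and 2 of the 10 FAT, Dachsous and CELSR genes. Of 12 non-clustered protocadherins, Pcdh1, Pcdh7, Pcdh18 and Pcdh19 had a gene-end peak in all 6 libraries and the other 8 in none. Of 17 classical cadherins, 4, 4 and 3 had one in siRNA-labelled libraries 1 to 3 and 5, 4 and 4 in NC-labelled libraries 1 to 3. Cdh2 (N-cadherin), Cdh11 and Cdh24 had one in all 6, and Cdh1 (E-cadherin) and Cdh5 (of endothelium) in none. Cdh3 had one in 2 siRNA-labelled and 3 NC-labelled libraries, and Cdh22 in 0 siRNA-labelled libraries and 1 NC-labelled library. Of 10 FAT, Dachsous and CELSR genes each library had one at 3, but only Fat4 and Celsr3 had one in all 6. The third gene differed between libraries, and Celsr2 had one in 1 siRNA-labelled and 1 NC-labelled library. Dchs1 had one in 2 siRNA-labelled libraries and 1 NC-labelled library, and Fjx1 in 0 siRNA-labelled libraries and 1 NC-labelled library.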

How the data were processed

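The data were 6 peak lists, 1 for each library, with peaks called separately in each. The submitters' processing notes name Bowtie2, Picard, MACS2 and the build mm10, with no version or option. For every peak the authors deposited an interval, a summit, an integer score, a fold over local background at the summit (a ratio), and p- and q-values, both as −log10. Peak numbers run without a break in all 6 lists. Members and lists were chosen with earlier results of these data known.

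Fold equals (fragments + 1) / (background + 1), and together with the p-value this fixed a whole number of summit fragments and a background for 100% of the peaks of each list (relative tolerance of 0.002 on −log10 p). The solver returned all 3986 simulated summits. Peaks sharing at least 1 bp were merged into regions, and each library's highest summit in a region was used, which can differ in place between libraries. Gene positions came from RefSeq GRCm38.p6 without strand or exons, so the left end stood for the start, and a gene end was a window of 1000 bp either side. Log2 summit fragments were tested with limma 3.58.1 (R 4.3.3) with a variance trend and Benjamini-Hochberg adjustment. In simulated fragments for the siRNA against NC comparison over 29602 regions, 98.5% of 200 regions changed 3-fold were called. The changed regions were drawn from those with a mean of at least 20 fragments, and the noise was Poisson with no added spread between libraries. Of the 5 shared regions of the windows 3 reach that mean, so the 98.5% does not give the power at these regions. Exact permutation tests of the sums over the windows had been planned and were run, but their p-values are not reported, since they score members selected on these peaks.

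Named by rule were members with a start peak, in each cluster the 5 regions of highest smallest within-list percentile of −log10 q, regions whose number of libraries differed by 2 or 3 between groups, other genes touching the windows, and up to 4 genes per list that differed most between groups. At the shared regions, the mean chi-square between siRNA-labelled libraries 2 and 3 was 0.691, against 0.700 to 0.733 for NC-labelled pairs and 0.815 to 1.00 for the remaining pairs. Their labels name different siRNAs, so they were kept apart, with their mean as 1 sample as an alternative. No sequence is printed.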

Additional observations from a re-analysis of the deposited data

Results flagged for a closer look

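The column of peak names, outside the comparisons, goes against the sample labels in 6 of 6 lists: each list's names give the opposite group and the same replicate number. If the names are right and the labels wrong, Pcdhgb1 and Pcdhgc4 would have start peaks in the siRNA libraries and not in the NC libraries. The absence of peaks from the alpha and beta windows and the 5 regions with a peak in every library hold under both readings. Which of them is right was not tested.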

How the results depend on the processing

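The lists hold called peaks only, and they do not show signal below the threshold. The 2 NC-only regions became 0 with −log10 q of at least 5, 1 with the same number of peaks per list and 0 when 50% of a region had to be covered (2 to 3 leaving out 1 library each). The 5 regions shared by all became 3 without flanks and 3 with 50% coverage (5 to 6 leaving out 1). They became 4 with −log10 q of at least 5, which the second Pcdhgc3 region did not reach in all lists, and 4 with the same number of peaks per list. The difference in peaks, siRNA minus NC, was -2.33, from -3.83 (without NC-labelled library 3) to -1.33 (without NC-labelled library 2) leaving out 1 library, -3.50 without siRNA-labelled library 3, -1.50 without siRNA-labelled library 1, -1 at −log10 q of at least 5 and -0.333 with equal numbers of peaks. That in members with a start peak was -2.00 (-2.67 to -1.67) and -0.333 at −log10 q of at least 5. That in covered length was -1032.7 bp, from -1900.8 (without siRNA-labelled library 3) to -562.8 bp (without siRNA-labelled library 2; -634.3 bp without 1), and -387.3 bp with equal numbers of peaks. Of the shared regions of the windows 0 passed limma in any setting; the lowest limma adjusted p was 0.634 as reported, 0.626 with the replicate block, 0.607 at a mean of at least 20 fragments, 0.395 without siRNA-labelled library 1 (Diaph1 region, log2 -0.34, unadjusted p 0.0613) and 0.0577 without scaling (Diaph1 region, unadjusted p 0.00667), while the median of all regions moved by -0.297. Scaling by background moved that median by 0.098 and turned the sign at the Pcdhgc3 start (0.05) and near the gamma end (0.01), so no direction is given there. The 63 calls over all regions became 10 to 372 leaving out 1 library (372 without siRNA-labelled library 1, 14 without 2, 56 without 3; 10, 17 and 13 without NC-labelled libraries 1, 2 and 3), 144 with the replicate block, 32 with siRNA-labelled libraries 2 and 3 as 1 sample, 2961 without scaling and 0 without the variance trend (2936 at an unadjusted p under 0.05). Correlations of deviations were 0.040, 0.032 and -0.021 for same-numbered libraries and -0.073 to 0.047 for the other pairs. No pairing by number was seen, and with low summit counts such correlations cannot exclude one. The causes were not tested.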
